A study of Mus musculus with 4 samples.

Results

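Chemokines and a set of cytokines that fibroblasts are known to make were read on 4 Agilent 2-colour whole mouse genome arrays. The set held the array gene names Ccl, Cxcl or Cx3cl followed by a number, together with Il6, Il11, Il33, Csf1, Csf2, Csf3, Il1rl1, Tslp, Ptgs2 and Ptx3. It comprised 41 of the 27745 gene names on the array, namely 19 CC chemokines, 11 CXC chemokines, 1 CX3C chemokine and 10 other genes. Lif was also sought, and no probe carried that name. The 41 genes were covered by 55 probes, and 12 of the genes had several.

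The RNA came from mouse embryonic fibroblasts (MEFs), primary cells grown from C57BL/6J embryos and labelled either Lats2-/- (KO) or Lats2+/+ (WT). LATS2 is a kinase of the Hippo pathway, known to respond to cell crowding. Each array carried the low density and the high density culture of 1 genotype, grown for 48 h to just below confluence or for 3 to 5 days. Time in culture thus differed together with density, and their effects cannot be told apart. Each genotype had 2 arrays with exchanged dyes, which are technical repeats of 1 replicate, so no test was possible and no p-value is given. The number of embryos behind a culture is not given in the sources used here. Both WT arrays lay on 1 slide and the KO arrays on 2 others with other scan days, so slide and genotype cannot be told apart.

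Of the features, 62.6% and 67.7% were well above background in the 2 channels of KO replicate 1 and 52.8% to 56.2% in the channels of the other 3 arrays, and none was saturated. Where a gene was detected on KO replicate 1 only, the part of this gap was not tested. Of 4 Lats2 probes, 3 were higher on the arrays labelled KO at both densities and 1 was lower. Where these probes lie relative to the deletion is not given in the sources used here, so KO and WT below mean the labels. All 9 fibroblast markers were well above background in every channel, with a summed signal of 18.76 to 19.49 (log2), set by the brightest of them. Single fibroblast markers differed widely. Pdgfra was 22.0-fold higher in KO cells at low and 8.56-fold at high density, Col3a1 rose at high density, by 4.14 in WT cells and 3.44 in KO cells (log2), Col1a2 gave 0.56 and 2.25, and S100a4 gave -0.79 and -2.46. Of 12 leukocyte markers, Ptprc, Emr1, Itgam and Fcgr1 were above background in no channel, and 3 to 6 were above it on both arrays of a condition. The summed leukocyte signal was 10.34 to 10.44 (log2) on WT arrays, 11.15 and 11.27 in KO cells at low density, and 12.39 and 12.63 in KO cells at high density, led by the lysozyme probes Lyz and Lyzs. Of the leukocyte markers above background in every channel, Cd68 gave density effects of 0.15 and -0.13, and Cd14 was lower in KO cells at both densities (-1.79 and -1.59). The summed endothelial signal was 8.94 to 11.08 (7 markers, highest in KO cells at high density) and the epithelial signal 8.54 to 10.72 (6 markers, highest in WT cells at low density), with Pecam1, Cdh5, Cdh1 and Krt8 above background in no channel. Cd34 alone of the endothelial list was above background in every channel, and it rose with density by 4.02 in KO cells and gave 0.59 in WT cells, with KO over WT at -1.80 and 1.63. Krt19 fell with density by 2.17 in WT and by 2.19 in KO cells and was lower in KO cells at both densities (-1.94 and -1.95). The part of these marker signals in the differences below was not tested. In whole cultures, fewer cells of a type and less RNA per cell cannot be told apart.

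Chemokines are small secreted proteins that guide leukocytes through receptors on the target cell. CXC chemokines of the kind made by Cxcl1, Cxcl5 and Cxcl15 attract neutrophils, and the CC chemokines made by Ccl2, Ccl7 and Ccl8 attract monocytes. Fibroblasts are known sources of these proteins, of IL-6 and of CSF1, and many of the genes are switched on through NF-kB. Several lie side by side in clusters on mouse chromosomes 5 and 11.

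The promoters of 4 neighbours in the chromosome 5 cluster are shown because 3 of these genes (Cxcl4, Cxcl15 and Cxcl1) were higher at high density in WT cells and the fourth (Cxcl2) was not detected. Each is the 250 bases before the RefSeq start site (build GRCm38.p6, plus strand). Capitals mark matches on either strand to 4 motifs, the kappaB consensus, AP-1 (TGANTCA), C/EBP (TTGCNNAA) and TEAD (CATTCC). No promoter of Cxcl5 was found in the table used.
Cxcl4, chr5:90772185-90772434: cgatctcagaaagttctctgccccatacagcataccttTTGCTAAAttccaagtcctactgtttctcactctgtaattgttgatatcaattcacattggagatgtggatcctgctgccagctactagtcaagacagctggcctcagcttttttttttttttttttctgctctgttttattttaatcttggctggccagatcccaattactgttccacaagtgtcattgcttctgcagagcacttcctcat
Cxcl15, chr5:90794284-90794533: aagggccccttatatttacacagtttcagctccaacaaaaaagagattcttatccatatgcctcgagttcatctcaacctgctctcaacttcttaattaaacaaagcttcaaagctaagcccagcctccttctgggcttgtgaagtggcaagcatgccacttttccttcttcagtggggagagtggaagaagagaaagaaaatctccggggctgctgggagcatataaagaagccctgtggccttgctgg
Cxcl1, chr5:90890995-90891244: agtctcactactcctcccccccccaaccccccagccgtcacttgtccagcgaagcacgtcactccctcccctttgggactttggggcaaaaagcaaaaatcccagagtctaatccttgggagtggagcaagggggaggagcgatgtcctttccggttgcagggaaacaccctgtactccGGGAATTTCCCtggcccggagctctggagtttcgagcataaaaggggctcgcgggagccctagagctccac
Cxcl2, chr5:90903649-90903898: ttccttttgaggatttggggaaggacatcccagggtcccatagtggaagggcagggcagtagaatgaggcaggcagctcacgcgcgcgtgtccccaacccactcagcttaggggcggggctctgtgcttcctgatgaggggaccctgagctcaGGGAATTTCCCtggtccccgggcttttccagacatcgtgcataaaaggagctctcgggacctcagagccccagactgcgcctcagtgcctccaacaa
The windows of Cxcl1 and Cxcl2 both held a pair of overlapping kappaB matches, which begin at positions -71 and -70 from the start site in Cxcl1 and at -97 and -96 in Cxcl2. Their longest shared run was 14 bases and contained these matches. The window of Cxcl4 held a C/EBP match at position -212, and that of Cxcl15 held none of the 4 motifs.

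The promoters of Ptx3, Il6 and Ccl9 are shown because both WT arrays gave a higher and both KO arrays a lower signal at high density for these genes, by their brightest probe. Ccl2 and Ccl7 gave these directions too, and no promoter of theirs was found in the table. The windows of Ptx3 and Il6 lie on the plus strand and that of Ccl9 on the minus strand.
Ptx3, chr3:66219637-66219886: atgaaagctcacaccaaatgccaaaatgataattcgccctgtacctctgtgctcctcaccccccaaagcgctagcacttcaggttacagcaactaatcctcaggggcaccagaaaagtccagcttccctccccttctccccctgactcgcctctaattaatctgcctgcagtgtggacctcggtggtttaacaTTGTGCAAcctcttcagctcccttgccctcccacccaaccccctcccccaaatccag
Il6, chr5:30012864-30013113: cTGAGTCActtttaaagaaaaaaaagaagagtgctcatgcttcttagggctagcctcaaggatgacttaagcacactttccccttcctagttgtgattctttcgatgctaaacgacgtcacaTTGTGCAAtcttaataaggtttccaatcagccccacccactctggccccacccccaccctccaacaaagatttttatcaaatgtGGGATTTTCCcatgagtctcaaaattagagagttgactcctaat
Ccl9, chr11:83578637-83578886: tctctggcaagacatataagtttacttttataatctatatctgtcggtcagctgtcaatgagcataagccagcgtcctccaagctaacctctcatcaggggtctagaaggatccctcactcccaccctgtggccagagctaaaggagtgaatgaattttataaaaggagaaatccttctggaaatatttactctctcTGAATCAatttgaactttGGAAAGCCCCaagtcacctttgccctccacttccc
Il6 held matches to the kappaB, C/EBP and AP-1 motifs, Ccl9 to the kappaB and AP-1 motifs, and Ptx3 to C/EBP alone. Of all 32851 promoter windows of this length, 7.25% held the kappaB consensus, 6.75% AP-1, 9.56% C/EBP and 12.6% TEAD. Of 36 windows from 30 set genes, 19.4%, 11.1%, 27.8% and 19.4% held them. Tslp was not among the set genes searched. Overlapping windows of Ccl27 share a C/EBP match, at positions -213 and -138, and it was counted in each. A match is a run of letters, and binding was not measured.

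Signals below are log2 values after background correction with an offset of 50 and scaling between arrays, by the brightest probe of each gene. The values of a condition are given for replicate 1 and then replicate 2, its dye swap. A gene counted as measured in a comparison when its probe was well above background on both arrays on at least 1 side, and as higher or lower when its mean ratio was at least 2-fold and both arrays, or both dyes, gave one direction. Of the 41 genes, 13 were well above background in all 8 channels, 14 in some and 14 in none, and 25 were measured in at least 1 comparison.

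**Figure D1:**
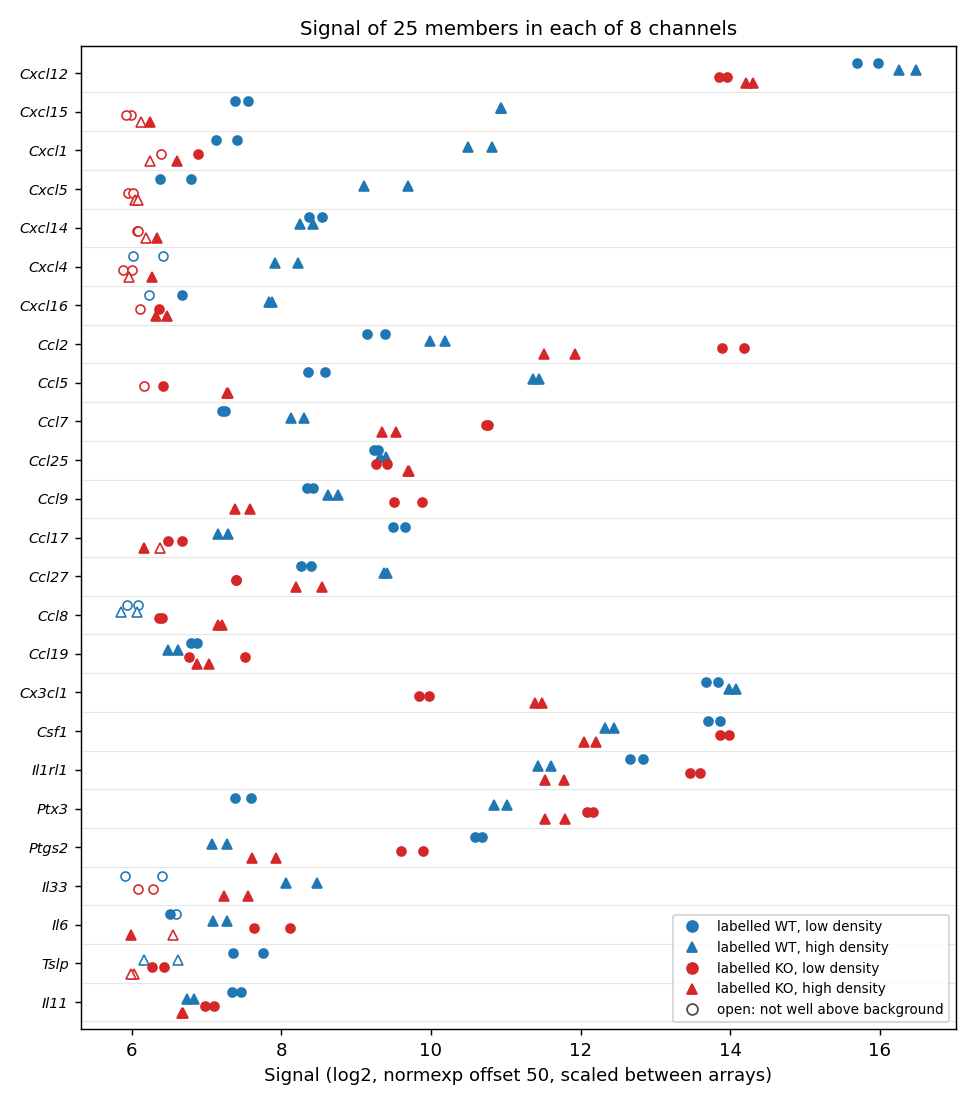
Signal (log2) of the 25 genes measured in at least 1 comparison, with 1 point per array, circles for low and triangles for high density, blue for WT and red for KO, open where the probe was not well above background. At high density the WT triangles of Cxcl15, Cxcl1 and Cxcl5 lie between 9.10 and 10.94, while the KO triangles lie between 6.04 and 6.61.

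The genes detected in no channel were Ccl1, Ccl3, Ccl4, Ccl11, Ccl12, Ccl20, Ccl22, Ccl24, Cxcl2, Cxcl9, Cxcl11, Cxcl13, Csf2 and Csf3. They included the neutrophil growth factor Csf3, the granulocyte and macrophage growth factor Csf2, and Cxcl9 and Cxcl11, which interferon is known to induce. Ccl6 and Ccl28 were above background in 1 channel each and were measured in no comparison. For these 16 genes the arrays give a limit and no level. The limit was set by the dimmest signals that passed, between 5.74 and 6.32 across channels. Some brighter signals did not pass, such as 6.62 for Tslp in WT replicate 2 at high density, so the limit is approximate.

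In WT cells, Cxcl1, Cxcl4, Cxcl5, Cxcl15, Cxcl16, Ccl5, Ccl27, Il33 and Ptx3 were higher at high density, and Ptgs2, Ccl17, Csf1, Il1rl1 and Tslp were lower. Of 24 genes measured, 9 were higher at high density (37.5%, against 9.42% of all 14879 genes measured) and 5 were lower (20.8%, against 6.09%). The median change was 0.58, against 0.06 over all genes. Some genes passed the detection rule only through the density at which they were bright, and 3 of the 14 changes are bounds. Among the 19 genes well above background in every WT channel, 6 were higher and 4 lower, with a median of 0.30.

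In KO cells, Ccl2, Ccl9, Ccl7 and Il6 were lower at high density, as were Ptgs2, Il1rl1 and Csf1. Of 20 genes measured, 2 were higher at high density (10% against 7.16% of 15444 genes) and 7 were lower (35% against 3.87%), with a median of -0.32 against 0.06 over all genes. The 2 higher were Cx3cl1 and Il33, and the share higher is near the background. With an offset of 10 in place of 50, 5 genes were higher, and 6 with the processed signals of the scanner software. Among 14 genes well above background in every KO channel, 1 was higher and 6 lower.

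Of 19 genes measured in both genotypes, Il33 was higher with density in both, and Csf1, Il1rl1 and Ptgs2 were lower in both. Ccl5, Ccl27, Cxcl16 and Ptx3 passed the threshold as higher in WT cells and did not pass it in KO cells, and for Cx3cl1 it was the reverse. Ccl2, Ccl7, Ccl9 and Il6 passed it as lower in KO cells and Ccl17 and Tslp in WT cells, each without passing it in the other genotype. Passing in 1 genotype is no difference between them. For Ccl27 the effects differed by -0.08, and for Tslp both are bounds, so that their difference has no value. Ccl19, Ccl25, Cxcl12 and Il11 passed the threshold in neither. The difference between the density effects reached 2-fold in 10 of the 19, being higher in KO cells for 3 (4.55% of 14169 genes) and lower for 7 (4.98%). The 7 became 4 with detection in every channel and 11 with no filter. None of these differences could be tested.

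**Figure D2:**
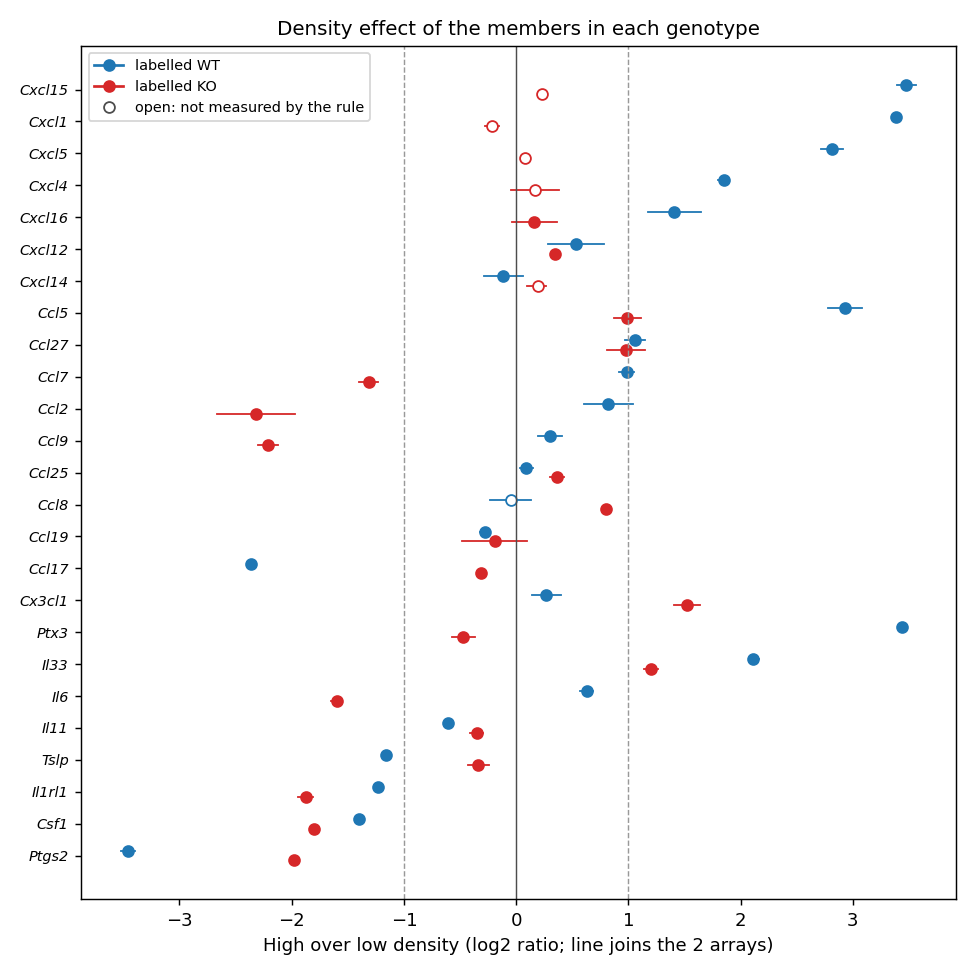
Log2 ratio of high over low density for each gene in WT cells (blue) and KO cells (red), with the point at the mean of the dye swap, the line joining its 2 arrays, open points where the gene was not measured and dashed lines at 2-fold. The 5 upper blue points, from Cxcl15 to Cxcl16, lie between 1.41 and 3.47, and Ccl2, Ccl7, Ccl9, Il6 and Ptx3 lie on opposite sides of 0.

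Among the CXC chemokines, Cxcl1, a ligand of the neutrophil receptor CXCR2, read 7.41 and 7.13 at low density and 10.81 and 10.50 at high density in WT cells. In KO cells it read 6.89 and 6.39 at low and 6.61 and 6.24 at high density, and was above background on replicate 1 only. The WT rise was 10.4-fold (log2 3.40 and 3.37 on the 2 arrays). The highest KO signal lay below the lowest WT signal at low density.

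Cxcl15, also known as lungkine, read 7.55 and 7.38 at low density and 10.94 on both arrays at high density in WT cells, an 11.1-fold rise. In KO cells its signals were 5.99, 5.93, 6.25 and 6.12, of which only the replicate 1 signal at high density was above background. A further Cxcl15 probe, 7.6 kb away and above background in WT cells at high density alone, rose at least 18.3-fold there. Cxcl5, another neutrophil attractant, read 6.79 and 6.38 at low and 9.70 and 9.10 at high density in WT cells, a 7.04-fold rise. All 4 KO signals of Cxcl5, from 5.95 to 6.08, were not above background.

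Cxcl4 (now Pf4), which encodes platelet factor 4, was above background in WT cells at high density alone, with 8.22 and 7.92 there and 6.42 and 6.02 at low density. Its rise in WT cells is a bound, at least 3.60-fold. An "at least" value sets the bright side against the higher of the dim signal and the dimmest signal that passed in that channel. Some signals brighter than that dimmest one did not pass, so such a value is approximate and no strict limit. Cxcl16, a membrane-bound chemokine that binds CXCR6, read 6.67 and 6.23 at low and 7.84 and 7.87 at high density in WT cells, a 2.65-fold rise, with replicate 2 at low density not above background. In KO cells its signals ran from 6.11 to 6.47, and its density effect of 0.16 was below the threshold.

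At the fibroblast chemokine Cxcl12, the ligand of CXCR4, the density effect stayed below 2-fold by the brightest probe. It read 15.70 and 15.97 at low and 16.48 and 16.25 at high density in WT cells, and 13.85, 13.96, 14.21 and 14.31 in KO cells. The mean density effects were 0.53 and 0.35. A second probe 6.75 kb away gave 1.57 and 0.73, past 2-fold in WT cells, so the probes lie on either side of the threshold. Cxcl14, which is expressed in many tissues at rest, read 8.25 to 8.54 in all WT channels and 6.07 to 6.34 in the KO channels, with density effects below 2-fold in WT cells.

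In the array's own coordinates (build mm8) the probes of Cxcl5, Cxcl4, Cxcl15, Cxcl1 and Cxcl2 lie in this order within 144 kb of chromosome 5, the first at chr5:91836379-91836438 and the last at chr5:91980708-91980767. Of the 4 that were measured, Cxcl5, Cxcl15 and Cxcl1 rose with density in WT cells by 2.81 to 3.47 (log2). Cxcl4, measured through its bright side, rose by at least 3.60-fold. None was measured for density in KO cells, where the values ran from -0.22 to 0.23. Cxcl2, the last in the row, gave 5.97 to 6.11 in WT cells and was above background nowhere.

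On chromosome 11, neighbouring genes gave unlike density effects. Ccl2 (chr11:81853343-81853402, mm8) and Ccl7, whose probe lies 10 kb further on, fell together in KO cells. Ccl8, 79.5 kb from Ccl2, did not fall there, with 6.40 and 6.37 at low and 7.21 and 7.16 at high density, a change of 0.80 that was below the threshold. Ccl11, Ccl12 and Ccl1 in the same row were not detected. In the next cluster, Ccl5 rose in WT cells and Ccl9, 48.9 kb away, fell in KO cells, while Ccl3 and Ccl4 were not detected.

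**Figure D3:**
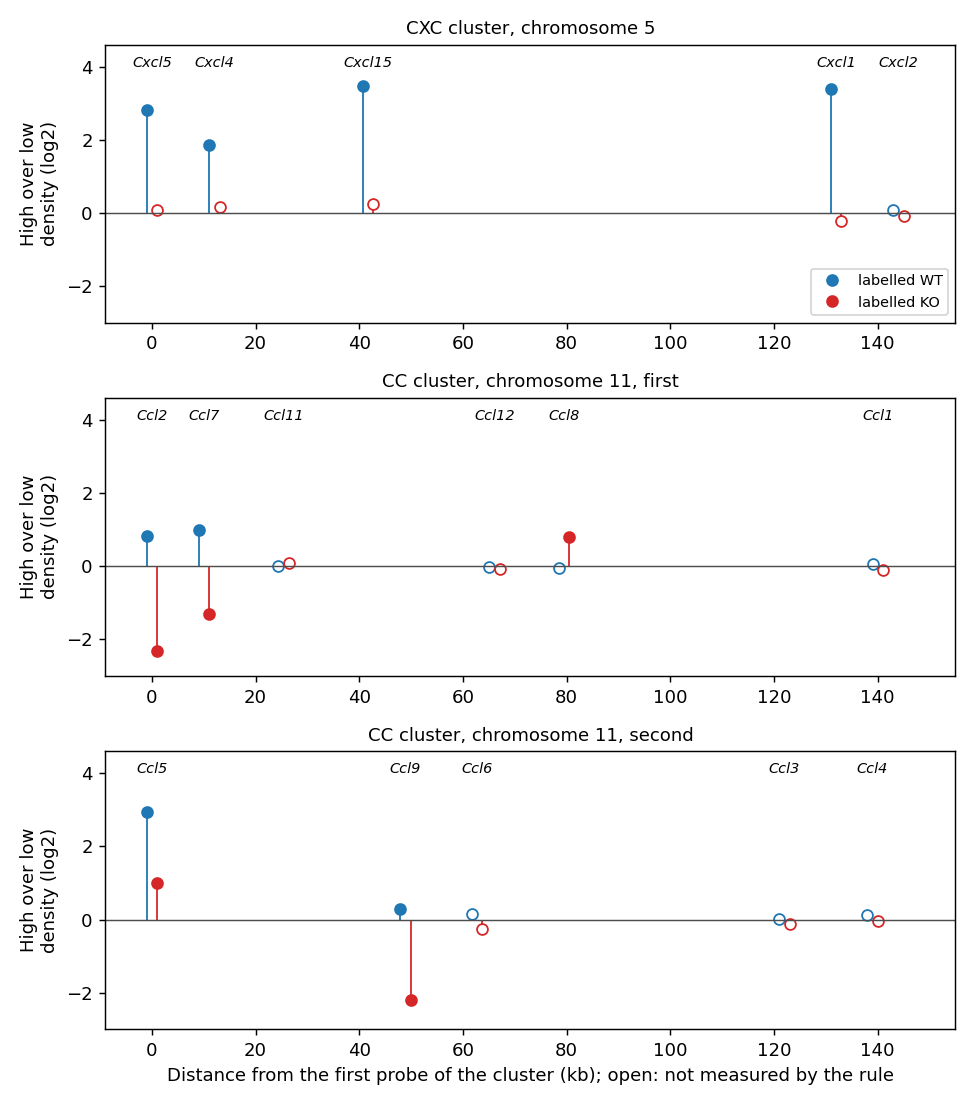
Mean log2 ratio of high over low density for the genes of 3 clusters, plotted by distance (kb) from the first probe, with blue for WT and red for KO drawn side by side and open points where the gene was not measured. In the CXC cluster 4 blue points lie at 1.85 to 3.47, and in the CC clusters the filled red points of Ccl2, Ccl7 and Ccl9 lie between -2.32 and -1.31.

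Ccl2, a monocyte attractant made by fibroblasts, read 9.15 and 9.39 at low and 10.19 and 9.99 at high density in WT cells. In KO cells it read 13.89 and 14.18 at low and 11.92 and 11.51 at high density. Every KO signal was above every WT signal. With density it fell 5.00-fold in KO cells (log2 -1.97 and -2.67, the widest gap between arrays among the genes measured there), while the WT change of 0.82 was below the threshold.

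Ccl7, a close relative with the same target cells, read 7.25 and 7.21 at low and 8.30 and 8.13 at high density in WT cells. In KO cells it read 10.76 and 10.73 at low and 9.53 and 9.34 at high density. The fall in KO cells was 2.48-fold, and the WT change of 0.99 stopped just short of 2-fold. Its second probe gave 0.83 and -1.31.

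Ccl9, a macrophage inflammatory chemokine of rodents, fell 4.63-fold in KO cells, from 9.51 and 9.88 to 7.38 and 7.58. In WT cells it read 8.35 and 8.43 at low and 8.76 and 8.62 at high density, so that the KO signals were the highest at low density and the lowest at high density.

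Ccl5 (RANTES), an attractant of T cells and monocytes, read 8.59 and 8.36 at low and 11.36 and 11.45 at high density in WT cells, a 7.62-fold rise. Its KO signals were 6.42 and 6.16 at low and 7.29 and 7.27 at high density, a mean change of 0.99. The difference between these effects was -1.94. It narrowed to -0.40, below the threshold, with the processed signals of the scanner software.

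Ccl17, a ligand of CCR4 on T helper cells, moved the other way. In WT cells it fell 5.13-fold, from 9.50 and 9.66 to 7.15 and 7.29. It was dim in KO cells, at 6.49 and 6.67 at low and 6.16 and 6.38 at high density. Ccl27 (now Ccl27a) changed by 1.06 in WT and 0.98 in KO cells, values on either side of the threshold that differed by less than the gap between arrays. Ccl25 and Ccl19 changed by at most 0.36 in size.

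Cx3cl1 encodes fractalkine, a membrane-anchored chemokine that can hold cells as well as attract them. It read 13.84 and 13.68 at low and 13.98 and 14.08 at high density in WT cells, and 9.98 and 9.84 at low and 11.39 and 11.48 at high density in KO cells. The WT signals lay together and above all KO signals, and the KO signal rose 2.87-fold with density. A dim second probe 9.44 kb away, above background in the 4 WT channels alone, gave 0.03 in WT cells. Its KO value of 0.08 lay at background and was not measured.

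Among the cytokines, Il6, a pleiotropic inflammatory signal, was dim. It read 6.59 and 6.52 at low and 7.27 and 7.09 at high density in WT cells, and 7.64 and 8.12 at low and 5.99 and 6.56 at high density in KO cells. It fell 3.03-fold in KO cells, and the WT change of 0.63 was below the threshold. Both rest in part on a signal at background, that of WT replicate 1 at low density and that of KO replicate 2 at high density. The KO signals at low density lay above all WT signals, and those at high density overlapped the WT signals at low density. Il11, which signals through the same receptor chain as IL-6, changed by -0.61 and -0.35.

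Il33, a nuclear cytokine released by damaged cells, was above background at high density alone in both genotypes. In WT cells it read 6.41 and 5.91 at low and 8.48 and 8.07 at high density, and in KO cells 6.29, 6.09, 7.55 and 7.23. The rise was at least 4.18-fold in WT cells and at least 2.30-fold in KO cells. Il1rl1, which encodes the IL-33 receptor ST2, fell with density in both, from 12.84 and 12.66 to 11.60 and 11.43 in WT cells (2.35-fold) and from 13.59 and 13.46 to 11.78 and 11.52 in KO cells (3.66-fold). Il33 entered both comparisons only through its bright high density side, so its direction is no separate result. Il1rl1 was above background in every channel, with no overlap between the densities in either genotype.

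Csf1, the growth factor of macrophages, fell 2.64-fold in WT and 3.49-fold in KO cells, from 13.87 and 13.71 to 12.45 and 12.33 and from 13.99 and 13.86 to 12.20 and 12.05. KO over WT gave 0.12 and 0.15 at low and -0.25 and -0.28 at high density in the 2 dyes. Tslp, an epithelial and stromal cytokine, was above background at low density alone. It fell at least 2.23-fold in WT cells, from 7.36 and 7.75 to 6.16 and 6.62, and at least 1.18-fold in KO cells, below the threshold.

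Ptgs2 encodes cyclooxygenase 2, the inducible enzyme of prostaglandin synthesis. It read 10.59 and 10.68 at low and 7.07 and 7.28 at high density in WT cells, a fall of 3.52 and 3.40 on the log2 scale. The KO signals were 9.60 and 9.90 at low and 7.61 and 7.93 at high density, a 3.95-fold fall. Its second probe gave falls of -3.39 and -2.11.

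Ptx3 encodes a long pentraxin, a secreted pattern recognition protein that inflamed fibroblasts make. In WT cells it read 7.59 and 7.38 at low and 11.02 and 10.84 at high density, a 10.9-fold rise. In KO cells it read 12.16 and 12.09 at low and 11.79 and 11.53 at high density, so it was high at both and the density effect of -0.47 was below the threshold. The second probe gave 3.50 and -0.54. Another, 4.99 kb away, gave 2.08 in WT cells and 0.24 in KO cells, so the KO direction differed between probes. The KO minus WT difference of the density effects was -3.91 by the brightest probe and -1.84 by this one.

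Set against WT cells at low density, KO cells had more Ccl2, Ptx3 and Ccl7 and less Cx3cl1, Ccl17 and Cxcl14. Of 22 genes measured, 5 were higher (22.7%, against 7.32% of 15253 genes) and 7 were lower (31.8%, against 8.36%), with a median of -0.48 against 0.03 over all genes. Among 15 genes well above background in all 4 low density channels, 4 were higher and 4 lower, and the median turned to 0.07.

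The higher genes were Ccl2 (27.3-fold, log2 4.74 and 4.79 in the 2 dyes), Ptx3 (log2 4.57 and 4.72), Ccl7 (11.4-fold), Il6 (2.51-fold) and Ccl9 (2.47-fold). The distant Ptx3 probe gave 1.03 in place of a mean of 4.64. In each of these genes both KO signals at low density lay above both WT signals at that density.

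The lower genes were Cx3cl1 (14.3-fold), Ccl17 (7.97-fold), Cxcl14 (at least 5.20-fold), Ccl5 (4.56-fold, above background on 1 of the 2 KO arrays), Cxcl12 (3.81-fold), Cxcl15 (at least 2.69-fold) and Tslp (2.31-fold). The second Cxcl12 probe, above background in every channel, gave 0.04. The second probes of Ccl5 and Cx3cl1 were not above background in KO cells and gave bounds of at least 1.68-fold and 1.60-fold, and that of Cxcl15 was measured on neither side. With all probes of a gene averaged, Cxcl12 and Cxcl15 stood at -0.95 and -0.98, below the threshold.

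At high density the 7 CXC chemokines measured were lower in KO than in WT cells, with a median of -2.11 (-3.05 with an offset of 10 and -5.38 with the processed signals). The detection rule took in 5 of them only through the bright WT side, so their direction is no separate result. Cxcl5 was above background on neither KO array and Cxcl1, Cxcl4, Cxcl14 and Cxcl15 on replicate 1 only. Cxcl12 and Cxcl16, above background on all 4 arrays, had a median of -1.78. Over the whole set 3 of 24 genes were higher (12.5%, against 6.74% of 15617 genes) and 11 were lower (45.8%, against 7.79%), with a median of -0.93 against 0.03. Among 16 genes well above background in all 4 high density channels, 2 were higher and 6 lower, and the median was -0.18. The scalings, offsets and single dyes tried kept the 7 CXC genes past the threshold, and requiring detection on every array left Cxcl12 and Cxcl16.

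Cxcl12 differed by 4.30-fold, Cxcl16 by 2.76-fold and Cxcl5 by at least 9.77-fold. The measured differences of the 4 genes above background on 1 of the 2 KO arrays, 27.0-fold for Cxcl15 (log2 -4.69 and -4.81), 18.8-fold for Cxcl1 (-4.20 and -4.26), 4.21-fold for Cxcl14 and 3.89-fold for Cxcl4, rest in part on a KO signal at background. The second Cxcl12 probe gave -0.81. The other lower genes were Ccl5 (17.5-fold), Cx3cl1 (6.03-fold), Ccl9 (2.31-fold) and Ccl27 (2.02-fold). The second Ccl5 probe gave 8.16-fold, and the dim Cx3cl1 probe, above background in no KO channel, at least 1.5-fold. Without scaling between arrays, which moved the median of all genes to 0.27, Ccl9 and Ccl27 stood at -0.96 and -0.77.

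The genes higher in KO cells at high density were CC chemokines. Ccl2 was 3.09-fold and Ccl7 2.33-fold higher in KO cells, less than at low density, and Ccl8 was at least 1.96-fold higher. Ccl8 was above background in all KO channels and in no WT channel, so this bound stops short of 2-fold, and its place among the 3 higher genes rests on the measured mean. None of the 7 other cytokines and enzymes measured reached 2-fold, with values from -0.90 for Il6 to 0.73 for Ptx3. The distant Ptx3 probe gave -0.82, in the other direction, and one further Il1rl1 probe gave -0.27 in place of 0.14.

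**Figure D4:**
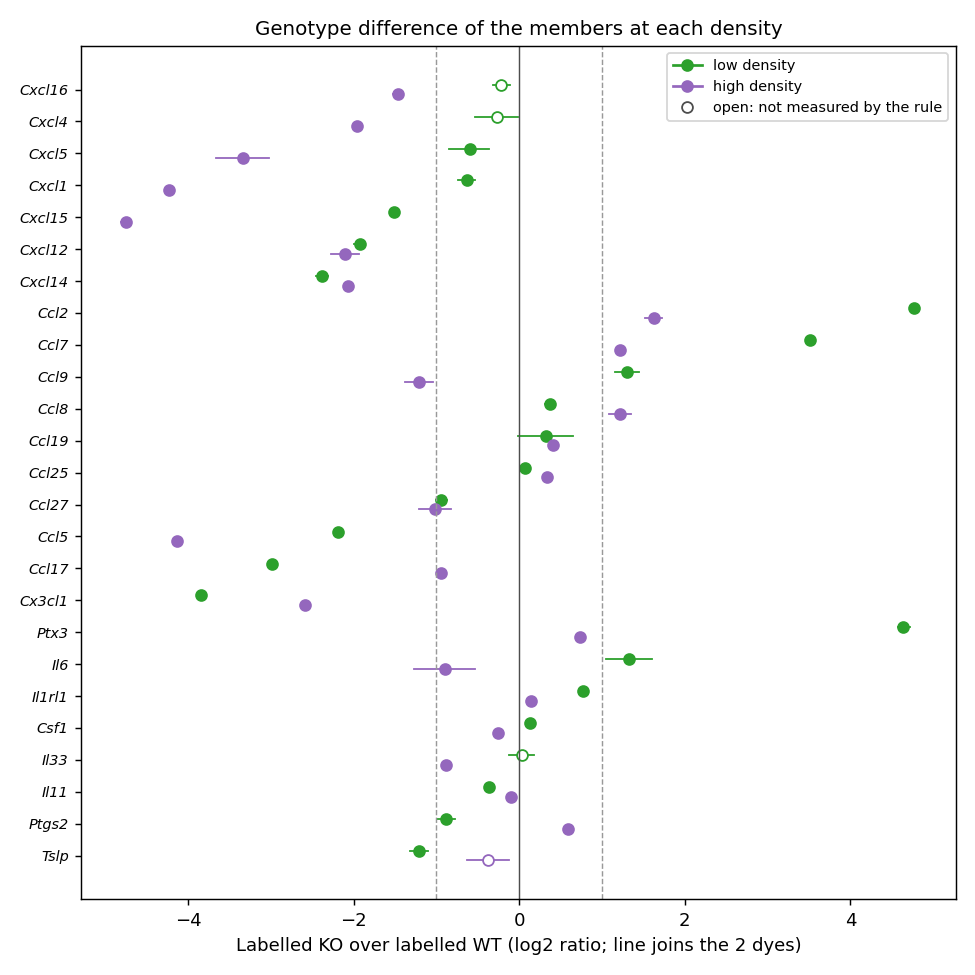
Log2 ratio of KO over WT for each gene at low density (green) and high density (purple), with the point at the mean of both dyes, the line joining the dyes, open points where the gene was not measured and dashed lines at 2-fold. All 7 purple points of the CXC genes lie between -4.75 and -1.46, and Ccl2, Ccl7 and Ptx3 lie furthest right at low density, at 4.77, 3.51 and 4.64.

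Genes of the surrounding pathways were read from lists written from general knowledge. Their counts with density stand against 9.42% of all measured genes rising and 6.09% falling in WT cells, and 7.16% rising and 3.87% falling in KO cells. In lists this small, 1 gene is about what these shares give. Of 22 chemokine receptor genes on the array, 8 were above background in no channel and 4 were measured for density in each genotype. Cxcr7 (Ackr3), a scavenger receptor of CXCL12, was above background throughout and rose at high density, by 1.60 in WT cells and by 2.48 in KO cells. Cxcr6, the receptor of CXCL16, fell by 1.49 in KO cells and in WT cells, where it was above background at low density alone, was lower by at least 1.2-fold, short of the threshold. Cxcr4, the signalling receptor of CXCL12, was above background in 3 of 8 channels. At low density 2 of 4 receptors measured were higher in KO than in WT cells (7.32% of all genes), Cxcr6 with 1.86 and Cxcr7 with 1.34. At high density 1 of 5 was higher (6.74%), Cxcr7 with 2.22.

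Of 11 receptor genes for the cytokines, 7 were measured, and only Il11ra1 passed the threshold with density, rising by 2.78 in WT and 2.66 in KO cells. Il6st, which encodes the shared chain gp130, gave 0.86 and 0.91, Osmr 0.87 and 0.63, and Csf2ra 0.94 and 0.71. In KO cells 3 of 7 were lower than in WT cells at low density (8.36% of all genes), Il1rap with -1.18, Osmr with -1.15 and Il6st with -1.04, and 2 of 7 at high density (7.79%), Osmr with -1.39 and Il1rap with -1.27.

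Among genes of the IL-1 and TNF system, which were listed with IL-17 and Toll-like receptors, 4 of 14 measured genes rose with density in WT cells (9.42% of all genes) and 3 of 14 in KO cells (7.16%). Tlr2, a Toll-like receptor, rose by 2.79 and 2.12 and Il18 by 1.98 and 1.42 in WT and KO cells. Il1r1, the signalling IL-1 receptor, rose by 1.58 in WT cells and gave 0.36 in KO cells. Tnfrsf1b, a TNF receptor, gave -0.54 and -0.74.

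Among NF-kB subunits, regulators and classical targets, 4 of 19 measured genes rose with density in WT cells (9.42% of all genes) and 1 fell. In KO cells 1 of 18 rose, near the 7.16% of all genes, and 2 fell (3.87%). Vcam1, a leukocyte adhesion molecule, rose by 2.24 in WT cells and gave 0.71 in KO cells. Tnfaip3 (A20), an inhibitor of NF-kB, fell by 1.88 in WT cells and gave 0.46 in KO cells. Bcl3 rose in both, by 1.15 and 2.52, and Tnfaip2 fell by 1.48 in KO cells. No subunit passed the threshold with density, with 0.30 and -0.03 in WT and KO cells for Nfkb1, 0.58 and -0.04 for Nfkb2, -0.09 and -0.04 for Rela and 0.68 and 0.55 for Relb, and Rel was not detected. At high density 4 of 19 (7.79% of all genes) were lower in KO cells, with KO over WT at -2.33 for Nfkbie, -1.89 for Tnfaip2, -1.71 for Bcl3 and -1.21 for Nfkb2. At low density 3 of 18 (8.36%) were lower, with -3.08 for Bcl3, -1.85 for Tnfaip3 and -1.26 for Nfkbie.

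In a list of C/EBP and AP-1 factors with Stat3 and Socs3, 3 of 11 measured genes (Cebpb, Cebpd and Cebpa) rose in WT cells, against 9.42% of all genes, and Junb fell. In KO cells 3 of 12 (Fosl1, Junb and Atf3) fell, against 3.87%, and none rose. Cebpb, a known activator of Il6, gave 1.25 in WT and -0.89 in KO cells, Cebpd gave 1.30 and -0.25, and Fosl1 -0.86 and -2.31. Atf3 gave -0.70 in WT cells and fell in KO cells.

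Of 9 measured regulators of cytokine mRNA decay, 1 rose in WT cells, near the 9.42% of all genes, and 2 in KO cells (7.16%). Zfp36l1, which binds AU-rich elements, rose by 3.12 in WT cells and gave 0.61 in KO cells. Tia1 rose by 1.15 and Tial1 by 1.04 in KO cells, and Khsrp gave 0.56 and 0.63. Zfp36l1 and Ddx6 were higher in KO than in WT cells at low density (2 of 9, against 7.32% of all genes). In the prostaglandin pathway, Pla2g4a, the phospholipase that frees arachidonic acid for COX enzymes, fell by 1.63 in WT cells and gave -0.92 in KO cells. Ptgs1, Ptges2 and Ptges3 gave density effects from -0.89 to 0.02. Ptges and Ptgis, which make prostaglandin E and prostacyclin from the COX product, were lower in KO cells at both densities. Ptgis, above background in no KO channel, was lower by at least 27.1-fold at low and 20.6-fold at high density. Ptges was lower by a measured 21.0-fold, with 1 of 2 KO arrays above background, and by 24.2-fold. With Ptgs1 at low density, the pathway had 3 of 7 genes lower there (8.36% of all genes) and 2 of 7 at high density (7.79%). Ptger3 went the other way, as 1 of 7 higher in KO cells at high density (6.74%). It was also the 1 of 7 that rose with density in KO cells (7.16%).

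A density effect past 2-fold was larger than the technical spread. Over all genes measured, single arrays deviated from their pair mean by 0.102 (SD, log2) in WT and 0.142 in KO cells, and among the set the median gap between arrays was 0.121 and 0.151. This spread covers labelling, hybridization and scanning and holds no spread between cultures or embryos. Both WT arrays lay on 1 slide, so the WT value holds no spread between slides. A slide effect shared by both dyes would not show in the spread of KO over WT values.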

How the data were processed

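Signals were measured on Agilent 2-colour arrays (whole mouse genome design, probe positions in build mm8) of RNA from MEFs labelled Lats2 KO or WT, 2 arrays with exchanged dyes per genotype. Groups, densities and dyes were taken from the labels, which write LAT2 in the source names and Lats2 in the genotype field. Per the submitters' processing notes, the authors extracted the scans with Agilent Feature Extraction 10.5.1.1. The deposited scanner files hold raw mean and background intensity, processed signal intensity that the software had corrected and dye normalized, and the software's log10 ratio. The deposited series matrix was checked and holds that log10 ratio, rounded, with swapped arrays turned to high over low density.

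Raw intensity was processed in R 4.3.3 with limma 3.58.1 by normexp with an offset of 50 and loess within arrays. Control spots had weight 0, and 107 to 224 features per array with an outlier flag were left out. Features of a probe were averaged. For genotype comparisons, channels were scaled between arrays (Aquantile), compared within a dye and averaged over both dyes. The offset shrinks ratios near background. All log2 values were computed here from the deposited intensity.

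A gene was represented by its brightest probe, and other probes were given where they differ in direction or by over 1 log2 unit, apart from those above background in no channel. Every gene of the set is named, and from the other lists up to 4 genes with the largest density effect among those above background in every channel. Other genes were named after their values were seen, where a count turned on them. Those lists were chemokine receptors, cytokine receptors, the IL-1 and TNF system with IL-17 and Toll-like receptors, NF-kB genes, C/EBP and AP-1 factors with Stat3 and Socs3, regulators of mRNA decay, the prostaglandin pathway, and leukocyte, endothelial, epithelial and fibroblast markers. A chemokine whose name has the form sought is not reported here. The set and the lists were chosen with earlier results of these data known. The size rule and the normalization were tested on simulated data, in which only bright probes were changed, alike in both genotypes. That simulation held no change in dim genes and no genotype difference. The number of arrays limits the precision, and with 1 replicate per genotype no test was made. Current names and promoters come from RefSeq tables (GRCm38.p6), and positions were not converted between builds. Tables were handled in Python 3.11.15 with pandas 2.3.3 and numpy 2.4.6.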

Additional observations from a re-analysis of the deposited data

Results flagged for a closer look

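For 5 of 19 genes measured in both genotypes (26.3%), both arrays labelled WT gave a higher and both arrays labelled KO a lower signal at high density. Of all 14169 genes measured in both, 7.91% did so. Taking the WT effect from the KO effect left -3.91 (log2) for Ptx3, -3.14 for Ccl2, -2.51 for Ccl9, -2.30 for Ccl7 and -2.23 for Il6. The WT effect passed 2-fold for Ptx3 alone (3.44, against 0.99 for Ccl7, 0.82 for Ccl2, 0.63 for Il6 and 0.30 for Ccl9). The KO effect passed it for the other 4 (-2.32 for Ccl2, -2.21 for Ccl9, -1.60 for Il6 and -1.31 for Ccl7, against -0.47 for Ptx3). A further Ptx3 probe gave a KO change of 0.24, in the other direction, and a KO minus WT difference of -1.84. Il6 was at background in WT replicate 1 at low density and in KO replicate 2 at high density. These differences were not tested, since each genotype had 1 replicate.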

How the results depend on the processing

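Of 59 calls of a gene as higher or lower, 51 held under every alternative that gave a value, 8 fell below 2-fold under some, and none turned direction. Those below 2-fold were, for density, Ccl27 in WT cells (0.94 with median centring, 0.97 without WT replicate 2) and Cx3cl1 in KO cells (0.80 with all probes averaged). For KO over WT they were Cxcl12 and Cxcl15 at low density (-0.95 and -0.98 with all probes averaged), and at high density Ccl27 (-0.97 with median centring, -0.77 without scaling, -0.82 without WT replicate 2 or KO replicate 2) and Ccl9 (-0.96 without scaling). For KO minus WT density effects they were Ccl5 (-0.40 with processed signals) and Cx3cl1 (0.65 with all probes averaged).

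With genes above background in every channel of a comparison, the WT density median was 0.30, 1 gene was higher in KO cells, and for KO over WT the low density median reversed to 0.07 with 4 genes lower, while the high density median was -0.18 with 6 lower. The same filter left a difference median of -0.18 with 4 lower. With no filter, the medians were 0.08 and -0.04 for density in WT and KO cells, -0.06 and -0.14 for KO over WT at low and high density, and -0.13 for the difference, with 11 lower. With an offset of 10, 5 genes were higher in KO cells, and the medians were -0.51 for KO density and -0.73 and -1.31 for KO over WT. Processed signals gave 6 higher in KO cells and medians of -0.73, -0.83 and -1.56. Without scaling, the KO over WT medians were -0.27 and -0.73. At a 1.4-fold threshold 5 genes were higher with density in KO cells and for KO over WT 11 were lower at low density and 5 were higher at high density. Averaging all probes left 1 gene higher in KO cells and a difference median of -0.51, and median centring gave -0.60. With 1 array left out, the low density KO over WT median ran from -0.44 to -0.36 and the difference median from -0.42 to -0.39.

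No paired analysis was possible because replicate numbers mark dye swaps of 1 RNA pair. The methods' t-test was not run, since each genotype had 1 replicate, and slide as a block could not be fitted, since no slide held both genotypes. Signals near background limit the dim genes, and a bound is given where a side was above background on neither array.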
